A study of Mus musculus with 4 samples.

Results

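Transcripts of 10 receptor genes that restrain or costimulate T cells were followed in tumor associated macrophages (TAMs) of control and propranolol treated mice. The genes were Pdcd1, Ctla4, Lag3, Havcr2, Tigit, Icos, Cd28, Tnfrsf4, Tnfrsf9 and Tnfrsf18, chosen by symbol from the 54146 genes of the count table. All 10 passed the filter on low counts and were among the 14688 genes tested. Immune competent female C57BL/6 mice of 8 to 16 weeks carried subcutaneous tumors of MCA205, a mouse fibrosarcoma cell line. Propranolol, a blocker of beta adrenergic receptors, was given to the treated mice at 0.5 g/L in the drinking water from the day of inoculation, and the control mice, labelled vehicle, had none (0 g/L). From each group, 2 libraries of poly-adenylated RNA were made from live cells that had been enriched for CD45 and sorted as CD11b+F4/80+. The comparison asks how propranolol alters the RNA of these cells in vivo. It rests on 1 tumor model. The study describes the libraries of a group as biological replicates, but neither the labels nor the methods say whether a library came from 1 mouse or from pooled tumors, so p-values measure the spread between these libraries, which may be technical. The total counts were 13798249 and 23018142 in control replicates 1 and 2, and 39818103 and 16424081 in propranolol replicates 1 and 2.

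T cells need a signal from the antigen receptor and a second one from costimulatory receptors such as CD28, and inhibitory receptors set against them limit how strongly and how long the cells respond. PD-1, CTLA-4, LAG-3, TIM-3 and TIGIT, the products of Pdcd1, Ctla4, Lag3, Havcr2 and Tigit, are the inhibitory ones, and several are targets of cancer therapy. CD28 and ICOS belong to the same family as CTLA-4, while OX40, CD137 and GITR, encoded by Tnfrsf4, Tnfrsf9 and Tnfrsf18, are costimulatory members of the tumor necrosis factor receptor family. These genes are known mainly from activated T cells, regulatory T cells and NK cells, and TIM-3 is also known from macrophages and dendritic cells.

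The sorted cells carried the transcripts that define macrophages at high level. Itgam, which encodes CD11b, was at 359 and 352 CPM (counts scaled to TMM-normalized library sizes) in control and at 369 and 313 CPM in propranolol libraries. Adgre1, which encodes F4/80, was at 975.3, 1008, 1151 and 1100 CPM in the same order, which is control replicate 1, control replicate 2, propranolol replicate 1 and propranolol replicate 2 throughout. Exons of Gm49368 on the same strand overlap 68.7% of the exon length of Itgam, and reads of the shared part cannot be told apart. The genes of the CD3 complex, which define T cells, were also present, with Cd3d, Cd3e and Cd3g together at 80.7, 98.5, 39.5 and 18.3 CPM. Thus both propranolol libraries held less Cd3 RNA than either control library, and propranolol replicate 2 held the least. In bulk RNA, fewer cells of a type and less RNA per cell cannot be told apart. The propranolol libraries also differed from each other in the receptor genes, since 10 of the 10 were lower in replicate 2 than in replicate 1, against 54.9% of all tested genes. Between the control libraries 5 of the 10 were lower in replicate 2.

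Of the 10 receptor genes, 7 fell in the libraries of sorted cells from propranolol treated mice and none rose. Which cells in the sort carried these transcripts was not tested. The 7 were Pdcd1, Ctla4, Lag3, Tigit, Icos, Cd28 and Tnfrsf9. The call required more than a 1.5-fold difference and, in the edgeR quasi-likelihood test, an adjusted p under 0.05, and 27.8% of all tested genes met it, 15.6% as lower and 12.2% as higher. The median log2 fold change of the 10 genes, propranolol over control, was -1.02, beside -0.02 over all tested genes. In 8 of the 10, both propranolol libraries lay below both control libraries, which held for 36.9% of all tested genes. Only Tnfrsf4 of the 10 had both propranolol libraries above both control libraries, which held for 35.8%. Together the 10 genes had 283, 288, 201 and 151 CPM.

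**Figure D1:**
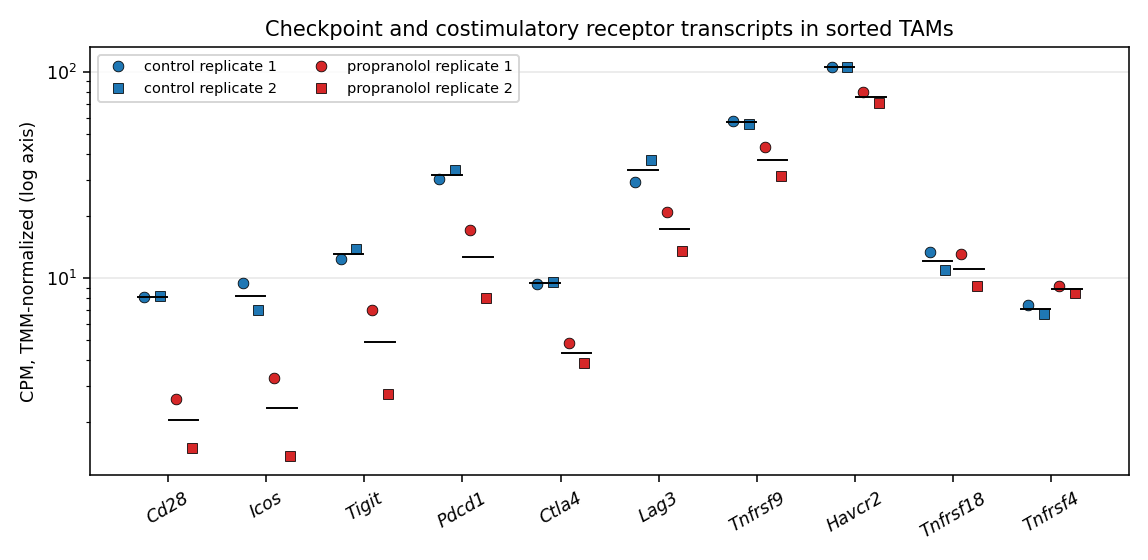
CPM on TMM-normalized library sizes (log axis) of the 10 receptor genes in each of the 4 libraries, with control in blue, propranolol in red, circles for replicate 1, squares for replicate 2 and a bar at each group's mean. The red points lie below the blue ones for 8 genes, above them for Tnfrsf4 and among them for Tnfrsf18, and the red square lies below the red circle in every gene.

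Among the inhibitory receptors, Pdcd1 was at 30.1, 33.2, 17.2 and 8.06 CPM, from 446, 834, 624 and 123 counts. Both propranolol libraries were lower than both control libraries, and propranolol replicate 2 was the lowest by a wide margin. The fitted level was 2.44-fold lower after propranolol (log2 fold change -1.29, SE 0.27, edgeR adjusted p = 0.0038). It became -1.97 without propranolol replicate 1 and -0.85 without propranolol replicate 2, and Pdcd1 was called changed in either case.

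Tigit, whose product competes with the costimulatory receptor CD226 for ligands on tumor and myeloid cells, had 184, 349, 256 and 42 counts, or 12.4, 13.9, 7.04 and 2.75 CPM. The groups did not overlap, and propranolol replicate 2 again stood lowest. Tigit was 2.57-fold lower (log2 fold change -1.36, SE 0.34, edgeR adjusted p = 0.0097). Leaving out propranolol replicate 1 moved this to -2.25 and leaving out propranolol replicate 2 to -0.87.

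Ctla4, whose product outcompetes CD28 for their shared ligands CD80 and CD86, was at 9.37, 9.53, 4.84 and 3.86 CPM, from 139, 239, 176 and 59 counts. The libraries of each group lay close together here, and the groups did not overlap. The fall was 2.15-fold (log2 fold change -1.10, SE 0.24, edgeR adjusted p = 0.0046), and under a correction for GC content the log2 fold change was -0.52 and the call was lost.

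Lag3, a receptor related to CD4 that binds MHC class II, was at 29.3, 37.2, 20.96 and 13.5 CPM, from 434, 934, 762 and 206 counts. Here the control libraries differed from each other too, but neither overlapped with the propranolol libraries. Lag3 was 1.91-fold lower (log2 fold change -0.93, SE 0.20, edgeR adjusted p = 0.0049), and without propranolol replicate 2 the log2 fold change was -0.64.

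Havcr2 was the most abundant of the 10 and moved least among the inhibitory receptors. It was at 106, 105, 79.6 and 70.6 CPM, from 1567, 2641, 2894 and 1078 counts. The groups did not overlap, and the fold, 1.40 lower (log2 fold change -0.49, SE 0.11, edgeR adjusted p = 0.0047), stayed under the 1.5-fold threshold, so Havcr2 was not called changed.

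Sequence before the transcription start was available from RefSeq on GRCm38.p6 for 7 of the 10 genes. The 250 bases before the start are shown for Pdcd1, Tigit and Ctla4, inhibitory receptors that fell together, and for Havcr2, which was not called. Each is written 5′ to 3′ on the strand of its gene, and capitals mark GGAAA or its reverse complement TTTCC, the core of the element bound by NFAT, a factor activated by antigen receptor signals. No exon of the annotation lies in these 4 windows.
Pdcd1, chr1:94052554-94052803, minus strand: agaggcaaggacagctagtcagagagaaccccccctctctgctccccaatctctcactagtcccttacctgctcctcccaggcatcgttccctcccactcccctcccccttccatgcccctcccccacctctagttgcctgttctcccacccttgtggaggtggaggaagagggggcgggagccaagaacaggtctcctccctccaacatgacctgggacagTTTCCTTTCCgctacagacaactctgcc
Tigit, chr16:43664185-43664434, minus strand: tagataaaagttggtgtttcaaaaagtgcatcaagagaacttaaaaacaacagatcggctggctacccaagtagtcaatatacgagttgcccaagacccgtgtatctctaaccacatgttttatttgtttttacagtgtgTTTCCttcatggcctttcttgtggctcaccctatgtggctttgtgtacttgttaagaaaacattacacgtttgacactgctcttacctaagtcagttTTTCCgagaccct
Ctla4, chr1:60908775-60909024, plus strand: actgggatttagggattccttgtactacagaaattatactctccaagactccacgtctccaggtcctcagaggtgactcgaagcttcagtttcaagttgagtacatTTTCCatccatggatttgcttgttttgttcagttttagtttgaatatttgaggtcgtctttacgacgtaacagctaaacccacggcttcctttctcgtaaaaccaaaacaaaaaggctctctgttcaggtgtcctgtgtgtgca
Havcr2, chr11:46454681-46454930, plus strand: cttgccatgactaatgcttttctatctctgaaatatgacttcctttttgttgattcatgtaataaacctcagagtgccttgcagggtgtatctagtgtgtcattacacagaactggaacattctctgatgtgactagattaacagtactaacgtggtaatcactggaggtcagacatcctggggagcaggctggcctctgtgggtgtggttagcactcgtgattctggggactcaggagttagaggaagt
The windows of Pdcd1 and Tigit held 2 matches each, that of Ctla4 held 1 and that of Havcr2 held 0. The number of matches did not follow the call throughout, since the windows of Tnfrsf18 and Tnfrsf4, which were not called, held 2 and 1. Tnfrsf9, which was called, had more than 1 window, with 2 and 3 matches. Unlike the windows shown, those of Tnfrsf4 and Tnfrsf18 held 166 and 158 bases of annotated exons. The Tnfrsf9 window with 3 matches held 81. The short NFAT core is common, since 55.6% of 32851 promoter windows of the same length held it. The window of Havcr2 held 1 match to the AP-1 motif TGANTCA, present in 6.75% of promoters, and those of Havcr2 and Tigit 1 each to the RUNX motif TGTGGT, present in 14%. All motifs were searched on both strands, and their letters do not overlap in the windows shown. A match describes the letters of the window and was not set against binding of a factor.

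Among the costimulatory receptors of the CD28 family, Cd28 itself had the largest fall of the 10 genes in the fit of all 4 libraries without GC correction. It had 120, 205, 94 and 23 counts, or 8.09, 8.17, 2.59 and 1.51 CPM. The control libraries were nearly equal and both propranolol libraries were far below them. Cd28 was 3.83-fold lower (log2 fold change -1.94, SE 0.32, edgeR adjusted p = 0.0011).

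Icos, which is induced on T cells after activation, was at 9.44, 6.98, 3.30 and 1.38 CPM, from 140, 175, 120 and 21 counts. The propranolol libraries were again below the control libraries, with replicate 2 lowest. The difference was 3.32-fold (log2 fold change -1.73, SE 0.38, edgeR adjusted p = 0.0050), and it ranged from -2.56 without propranolol replicate 1 to -1.27 without propranolol replicate 2 on the log2 scale.

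The receptors of the tumor necrosis factor receptor family moved less, or not beyond the threshold. Tnfrsf9, encoding CD137, was at 58.0, 55.7, 43.3 and 31.4 CPM, from 860, 1397, 1574 and 480 counts, with both propranolol libraries lower. It was 1.51-fold lower (log2 fold change -0.59, SE 0.15, edgeR adjusted p = 0.010), just past the 1.5-fold threshold, and lost the call without control replicate 1 (-0.51) and without propranolol replicate 2 (-0.36).

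Tnfrsf4, encoding OX40, was at 7.42, 6.70, 9.13 and 8.51 CPM, from 110, 168, 332 and 130 counts. Both propranolol libraries were above both control libraries by a small margin, and the difference did not pass the test (log2 fold change 0.33, SE 0.21, edgeR adjusted p = 0.24). Its 95% confidence interval ran from -0.15 to 0.80.

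Tnfrsf18, encoding GITR, was at 13.4, 10.9, 13.1 and 9.17 CPM, from 199, 274, 476 and 140 counts. The groups overlapped, and each held 1 library near 13 CPM and 1 lower. The log2 fold change was -0.11 (SE 0.22, edgeR adjusted p = 0.73) with a 95% confidence interval from -0.59 to 0.38, so a fall as large as that of Tnfrsf9 lay at its edge. Exons of the antisense gene Gm16008 overlap 27.2% of the exon length of Tnfrsf18. No strand option is stated for the counting, so reads of the shared part cannot be told apart. Whether such reads were left out of the counts is not stated either. Gm16008 itself had 5, 24, 0 and 4 counts.

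Several of these genes are neighbours in the genome. On GRCm38, Cd28 (chr1:60716800-60773359), Ctla4 (chr1:60887000-60915832) and Icos (chr1:60977927-61000320) lie side by side on the plus strand of chromosome 1, and all 3 fell. Pdcd1 lies on the same chromosome on the minus strand (chr1:94038305-94052553). Tnfrsf4 (chr4:156013843-156016612) and Tnfrsf18 (chr4:156026164-156028895) are neighbours on the plus strand of chromosome 4, and neither was called changed, while Tnfrsf9 (chr4:150914562-150946102) lies apart from them on the same chromosome and strand. Lag3 (chr6:124904361-124911705) and Tigit (chr16:43648867-43664146) are on minus strands and Havcr2 (chr11:46454935-46481255) is on a plus strand.

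Fold changes followed the GC content of genes in these libraries, with a Spearman correlation of 0.577 across 14681 genes, which are not independent replicates. The receptor genes range in GC content from 41.2% in Cd28 to 59.9% in Lag3, around a median of 49.6% over tested genes. When the GC trend of each library was removed, 5 of the 10 genes remained changed, all lower, beside 12.6% of all tested genes changed and 4.99% lower. The 5 were Pdcd1 (log2 fold change -1.55, adjusted p = 0.0046), Lag3 (log2 fold change -1.24, adjusted p = 0.0041), Tigit (log2 fold change -1.52, adjusted p = 0.013), Icos (log2 fold change -1.20, adjusted p = 0.041) and Cd28 (log2 fold change -1.22, adjusted p = 0.017), by edgeR. The fall was larger after the correction in the GC-rich Pdcd1 and Lag3 and smaller in the GC-poor Icos and Cd28.

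Ctla4 and Tnfrsf9 lost the call under the GC correction. Ctla4, with 42.6% GC, was at a log2 fold change of -0.52 (SE 0.23, edgeR adjusted p = 0.13) and Tnfrsf9 at -0.43 (SE 0.14, edgeR adjusted p = 0.059). Havcr2, with 45.3% GC, was at -0.13 (SE 0.10, edgeR adjusted p = 0.37). Tnfrsf4 was at 0.05 and Tnfrsf18 at -0.41, and neither passed. The median log2 fold change of all tested genes shifted to 0.09 under this correction and that of the 10 receptor genes to -0.86. Of all calls 56.0% were lower without the correction (1798 higher, 2286 lower) and 39.5% with it (1122 higher, 733 lower). The split depended on other settings too, with 2321 higher and 2145 lower without the filter on low counts. It was 1417 higher and 2533 lower with upper-quartile scaling, and 61 higher and 667 lower at a log2 fold change above 1.5.

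**Figure D2:**
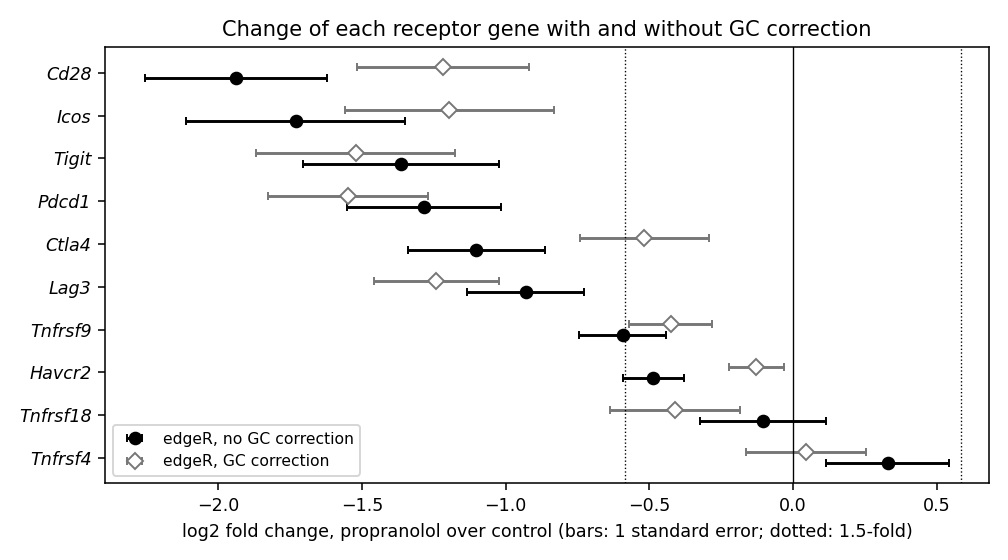
Log2 fold change of the 10 receptor genes, propranolol over control, from the edgeR fit without (filled circles) and with (open diamonds) the GC correction, with bars of 1 standard error and dotted lines at 1.5-fold. Cd28 and Icos move toward 0 with the correction and stay past the line, Ctla4 moves inside it, and Pdcd1, Lag3 and Tigit move away from 0.

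Levels of different genes were compared per exon length, as length-normalized TPM values. In the control libraries Havcr2 stood highest at 129 ± 2.29 TPM (SD, n = 2), followed by Tnfrsf9 at 69.3 ± 0.575 TPM. Pdcd1 (54.5 ± 4.97 TPM), Lag3 (52.4 ± 9.94 TPM) and Tigit (47.6 ± 4.81 TPM) came next, and neighbours among these 3 overlapped. Tnfrsf18 (26.5 ± 3.31 TPM), Tnfrsf4 (17.2 ± 0.890 TPM), Ctla4 (13.5 ± 0.430 TPM), Icos (7.93 ± 1.53 TPM) and Cd28 (4.41 ± 0.120 TPM) followed, each separate from the next.

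The order of these levels was partly different in the propranolol libraries. Havcr2 (77.6 ± 4.40 TPM) and Tnfrsf9 (38.5 ± 7.59 TPM) were again highest and separate. Lag3 (22.9 ± 6.40 TPM), Tnfrsf18 (20.5 ± 4.55 TPM), Pdcd1 (18.3 ± 8.88 TPM), Tnfrsf4 (18.2 ± 0.390 TPM) and Tigit (14.9 ± 8.87 TPM) formed a middle group in which each overlapped with the next. Ctla4 (5.25 ± 0.687 TPM) stood apart below them. Icos (1.9 ± 1.06 TPM) and Cd28 (0.936 ± 0.325 TPM) were lowest and overlapped with each other.

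T cell marker genes fell with the receptors in the sorted libraries. These values describe the sorted cells and not the number of T cells in the tumors. By flow cytometry of MCA205 tumors, the study reported more CD4+ T cells after propranolol and a trend to more CD8+ T cells. Of 12 T cell marker genes, all of them tested, 11 fell and none rose. Their median log2 fold change was -1.29 against -1.02 for the receptors, and 10 of the 12 remained lower after the GC correction. Summed, the 12 genes were at 258, 302, 128 and 72.6 CPM, and none was at 0 in all libraries. The most abundant per length was Trac, the constant part of the T cell receptor alpha chain, at 20.8, 20.7, 11.6 and 6.61 CPM, 2.22-fold lower (log2 fold change -1.15, edgeR adjusted p = 0.0035).

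Without GC correction, the largest fall among the T cell markers was that of Themis, a protein of T cell receptor signalling. It went from 7.22 and 8.05 CPM to 0.963 and 0.524 CPM (log2 fold change -3.26, edgeR adjusted p = 1.9e-04). Under the GC correction its log2 fold change was -2.24, beside -2.25 for Trbc2. Cd8a, which marks cytotoxic T cells, was at 71.0, 86.8, 29.4 and 13.4 CPM (log2 fold change -1.84, edgeR adjusted p = 6.8e-04). Cd4 was the exception, at 13.2, 13.4, 16.3 and 17.0 CPM, and did not pass the test (log2 fold change 0.32, edgeR adjusted p = 0.14). As in the receptors, propranolol replicate 2 was lower than replicate 1 in Trac, Themis and Cd8a.

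Counts of each receptor gene were therefore set against the summed counts of Cd3d, Cd3e and Cd3g of the same library, which were 1196, 2472, 1436 and 280. With 2 libraries a group, no exact permutation test of such a ratio can reach a p below 0.33 (two-sided), so these ratios are described without a call. Together the 10 receptor genes had 351, 292, 509 and 822 counts per 100 Cd3 counts. Most of these counts were of Havcr2 (131, 106.8, 201.5 and 385 per 100 Cd3 counts) and Tnfrsf9 (71.9, 56.5, 109.6 and 171.4). The ratio of the summed receptors was higher in both propranolol libraries, 2.02-fold on average, although their summed CPM was lower there. The log2 difference of 1.01 was 0.67 without propranolol replicate 2.

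The genes separated by this measure. Pdcd1 had 37.3, 33.7, 43.5 and 43.9 counts per 100 Cd3 counts, a log2 difference of 0.30, and with all 12 T cell marker genes as reference this became 0.11 with overlapping groups. Tigit, at 15.4, 14.1, 17.8 and 15, and Icos, at 11.7, 7.08, 8.36 and 7.50, overlapped between the groups. Without GC correction, Cd28 was the only gene of the 10 lower relative to Cd3 in both propranolol libraries, at 10.03, 8.29, 6.55 and 8.21, where propranolol replicate 2 lay close to control replicate 2 and the log2 difference of -0.31 ranged from -0.48 to -0.15 with a library left out.

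Ctla4, at 11.6, 9.67, 12.3 and 21.1 counts per 100 Cd3 counts, was higher in both propranolol libraries, but propranolol replicate 1 lay close to control replicate 1. Its log2 difference of 0.60 became 0.21 when propranolol replicate 2 was left out and 0.99 when replicate 1 was. Lag3 had 36.3, 37.8, 53.1 and 73.6 counts per 100 Cd3 counts, a log2 difference of 0.75. Higher still were Tnfrsf9 (1.11), Havcr2 (1.24) and Tnfrsf18 (1.58), of which Havcr2 was at 0.77 without propranolol replicate 2. Tnfrsf4 had the largest log2 difference, 2.05, from 9.20 and 6.80 counts per 100 Cd3 counts under control conditions to 23.1 and 46.4 after propranolol. In each of these genes propranolol replicate 2, the library with the fewest Cd3 counts, stood above propranolol replicate 1. These ratios hold no correction for GC content, which was 38.5% in Cd3g. Under the GC correction the log2 fold changes of Cd3d, Cd3e and Cd3g were -1.10, -1.02 and -1.04. Those of Pdcd1 (-1.55), Tigit (-1.52), Lag3 (-1.24), Cd28 (-1.22) and Icos (-1.20) then lay below all 3 Cd3 genes. Lag3, Cd28 and Icos, with SEs of 0.22, 0.30 and 0.36, lay close to Cd3d. Other T cell markers, Trbc2 (-2.247), Themis (-2.243), Cd8b1 (-1.915) and Cd8a (-1.63), lay below all of these receptors, and the rest lay above them. Those of Ctla4, Tnfrsf9, Tnfrsf18, Havcr2 and Tnfrsf4 lay above all 3 Cd3 genes. Without the correction the log2 fold changes of Cd3d, Cd3e and Cd3g were -1.10, -1.43 and -2.08, and Lag3 (-0.93) lay above all 3. Pdcd1 (-1.29), Tigit (-1.36), Icos (-1.73) and Cd28 (-1.94) lay within the range of the 3. The differences between these fold changes were not tested. Whether Cd3 RNA, receptor RNA of T cells and receptor RNA of other cells contribute to these ratios in the same way in each library was not tested.

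**Figure D3:**
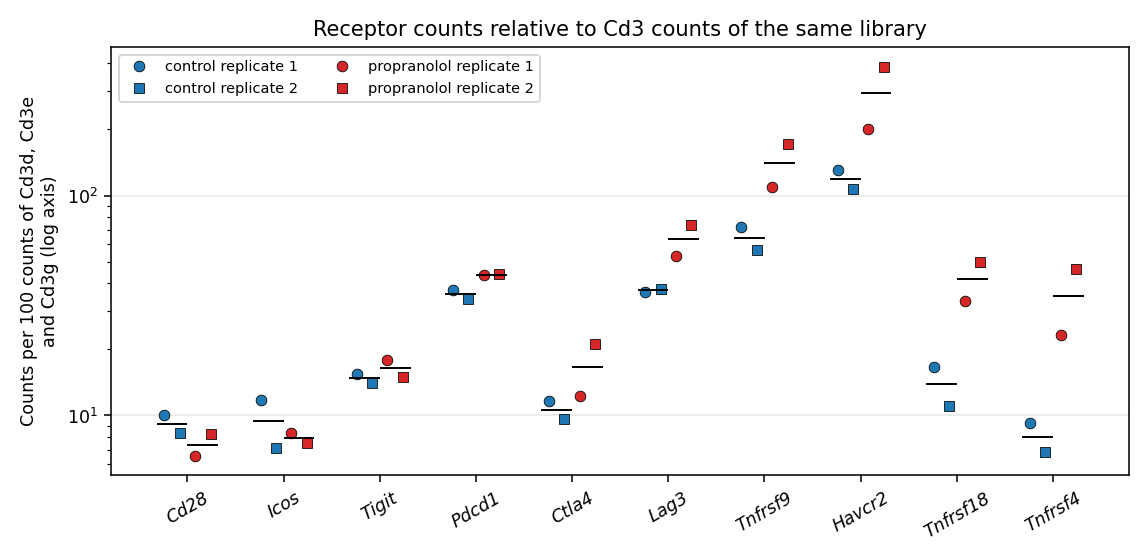
Counts of each receptor gene per 100 summed counts of Cd3d, Cd3e and Cd3g of the same library (log axis), without GC correction, with colors, symbols and bars as in the plot of CPM by library. Red points overlap with blue ones for Tigit and Icos, lie below for Cd28 and lie above for the other 7 genes, by the widest gap for Tnfrsf4.

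The ligands of these receptors, which macrophages and tumor cells can present, were not called in the main comparison. Of 15 ligand genes 12 were tested, and 0 changed in edgeR, DESeq2 or limma-voom, although 6 had an unadjusted edgeR p under 0.05. Both Tnfsf4 (lower) and Tnfsf9 (higher) were called without the filter on low counts and without propranolol replicate 1, Tnfsf4 alone with the replicate number as a block, and Tnfsf9 alone without control replicate 2. The median log2 fold change was 0.10. Cd274 and Pdcd1lg2, which encode the PD-1 ligands PD-L1 and PD-L2, had log2 fold changes of -0.01 (95% confidence interval -0.26 to 0.25) and -0.12 (-0.71 to 0.48). Cd274 was at 132, 160, 149 and 143 CPM, so the control libraries enclosed the propranolol libraries. Under the GC correction its log2 fold change was 0.38 (edgeR adjusted p = 0.036), within 1.5-fold.

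Adjusted p-values under 0.05 with changes smaller than 1.5-fold were found for 4 ligand genes. Cd86, a ligand of CD28 and CTLA-4, was at 90.6, 89.7, 67.9 and 62.9 CPM (log2 fold change -0.46, edgeR adjusted p = 0.0056), and under the GC correction at a log2 fold change of 0.07. Lgals9, which encodes the TIM-3 ligand galectin 9, was at 206, 195, 284 and 268 CPM (log2 fold change 0.46, edgeR adjusted p = 0.0038). Nectin2, a ligand of TIGIT, and Tnfsf9, the ligand of CD137, had log2 fold changes of 0.48 and 0.52 with edgeR adjusted p-values of 0.040 and 0.029, and neither passed under the GC correction (0.14 and 0.35, adjusted p = 0.56 and 0.14). All 3 of Lgals9, Nectin2 and Tnfsf9 had both propranolol libraries above both control libraries. Cd80, the partner of Cd86, was at 17.6, 14.1, 14.6 and 13.8 CPM and did not pass (log2 fold change -0.15, edgeR adjusted p = 0.52, and 0.43 with an adjusted p of 0.087 under the GC correction).

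Of 16 further receptor genes of T and NK cells 15 were tested, of which 7 fell, 1 rose and 7 were not called, with a median log2 fold change of -0.96, and after the GC correction 4 were called, all lower. Cd2, an adhesion receptor, was at 16.2, 15.6, 6.63 and 4.19 CPM (log2 fold change -1.52, edgeR adjusted p = 8.2e-04). Cd96 and Cd226, which share ligands with TIGIT, had log2 fold changes of -1.89 and -1.52 (edgeR adjusted p = 0.0017 and 0.0073), and Cd226 was at -0.02 under the GC correction. The inhibitory Btla and the costimulatory Cd27 were also lower, at log2 fold changes of -2.23 and -1.21 (edgeR adjusted p = 0.0068 and 0.012), and Btla lost the call under the GC correction (-1.46, adjusted p = 0.067).

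The most abundant gene of that list was not among those that fell. Vsir, which encodes the checkpoint VISTA known from myeloid cells, was at 626, 572, 796 and 911 CPM, higher in both propranolol libraries but within 1.5-fold (log2 fold change 0.51, edgeR adjusted p = 0.0030, and 0.26 with an adjusted p of 0.099 under the GC correction). Tnfrsf14, the ligand of BTLA, was at 53.7, 67.5, 79.5 and 98.4 CPM, also within 1.5-fold (log2 fold change 0.55, edgeR adjusted p = 0.012, and 0.29 with an adjusted p of 0.14 under the GC correction). The single gene that rose was Tnfrsf25, named here after its values were seen, at 2, 5, 35 and 15 counts (log2 fold change 2.45, edgeR adjusted p = 0.018). It lost the call under the GC correction, in DESeq2 and whichever library was left out (log2 fold change 2.31 to 2.81, edgeR adjusted p 0.070 to 0.13).

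The signalling genes behind these receptors were lower or not called. Of 17 genes, all tested, 10 fell and 0 rose by the call, with a median log2 fold change of -0.70, and after the GC correction 8 were called lower and 1 higher. Zap70, the kinase recruited to the CD3 complex, and Sh2d2a, a T cell adaptor, had log2 fold changes of -0.88 and -1.07 (edgeR adjusted p = 0.0043 and 0.0021). Ptpn22 and Fyb, which macrophages also express, were lower as well, at -1.10 and -0.70 (edgeR adjusted p = 4.8e-04 and 5.0e-04). After the GC correction Ptpn22 was at -0.71 and Fyb was under the threshold (-0.57).

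Ptpn6, the phosphatase SHP-1 that acts downstream of inhibitory receptors in many blood cells, was the most abundant of the signalling genes at 487, 546, 692 and 626 CPM. Its change stayed within 1.5-fold (log2 fold change 0.35, edgeR adjusted p = 0.018, and 0.07 under the GC correction). Lcp2, an adaptor of T cells and myeloid cells, was at 223, 262, 262 and 259 CPM with a log2 fold change of 0.11 (edgeR adjusted p = 0.45).

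Of 12 markers of T cell exhaustion and activation 9 were tested, of which 5 fell and 1 rose, with a median log2 fold change of -0.96, and Il21 had no count in any library. Ifng, the interferon of effector T and NK cells, was at 8.83, 7.97, 2.67 and 1.05 CPM (log2 fold change -2.09, edgeR adjusted p = 0.0019). Tox, a factor of exhausted T cells, was at 7.15, 8.69, 3.00 and 1.24 CPM (log2 fold change -1.83, edgeR adjusted p = 0.0036), and Tbx21 and Tcf7, factors of effector and of stem-like T cells, were lower at -1.35 and -1.10 (edgeR adjusted p = 0.0043 and 0.0075). The gene that rose was Nr4a1, an immediate early gene that macrophages express too, at 134, 124, 208 and 272 CPM (log2 fold change 0.90, edgeR adjusted p = 6.2e-04), and its change was 0.56, under the threshold, after the GC correction.

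Regulatory T cell markers did not move together. Of 7 genes 6 were tested and 3 fell, with a median log2 fold change of -0.67. Foxp3, the factor that defines these cells, was at 5.26, 6.86, 6.38 and 7.73 CPM, with overlapping groups and a log2 fold change of 0.20 (95% confidence interval -0.36 to 0.76, edgeR adjusted p = 0.55), or -0.09 under the GC correction. Exons of other genes, including Flicr (18.6%) and Ccdc22 (12.9%), overlap parts of its exon length, so the limit given for Tnfrsf18 holds here too. Il2ra, the high-affinity interleukin receptor chain of regulatory and of activated T cells, was at 14.6, 16.0, 8.47 and 5.76 CPM (log2 fold change -1.08, edgeR adjusted p = 0.0032). Its log2 fold change was -0.66 under the GC correction (edgeR adjusted p = 0.044). Ikzf2 and Ikzf4, transcription factors of regulatory T cells, were lower at -1.41 and -1.13 (edgeR adjusted p = 4.1e-04 and 0.045), and Ikzf2 lost the call under the GC correction (-0.55). Ikzf4 lost it in DESeq2 and without control replicate 2 (-0.66), propranolol replicate 1 (-1.02) or propranolol replicate 2 (-1.19). Il10, a cytokine that macrophages make too, was at 2.56, 3.91, 4.73 and 6.03 CPM and did not pass (log2 fold change 0.70, edgeR adjusted p = 0.10), but was called higher under the GC correction (1.13, adjusted p = 0.034). Ccr8, a chemokine receptor of tumor regulatory T cells, was at 1.69, 1.79, 1.65 and 1.24 CPM and did not pass (log2 fold change -0.25, edgeR adjusted p = 0.69).

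Markers of other cells that a CD11b+F4/80+ sort could hold moved in both directions. NK cell genes fell in 9 of 9 tested cases, with a median log2 fold change of -2.28 (-1.52 under the GC correction), and summed to 95.1, 92.3, 23.9 and 13.7 CPM. Klrd1, an NK receptor chain and the most abundant of them per exon length, was at 22.9, 23.0, 3.25 and 1.18 CPM (log2 fold change -3.24, edgeR adjusted p = 1.3e-04), and its log2 fold change was -1.86 under the GC correction. Klrk1, which encodes NKG2D, was at 37.7, 37.3, 12.1 and 7.86 CPM (log2 fold change -1.88, edgeR adjusted p = 1.3e-04), and at -0.05 under the GC correction, which left 4 of the 9 called. NK cells are known to carry Tigit, Lag3, Havcr2 and Tnfrsf9 too, and the part of NK and of T cells in the receptor counts was not tested.

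Dendritic cell genes summed to 83.5, 66.3, 47.4 and 44.8 CPM, and 4 of 8 fell, beside 2 under the GC correction and 2 without control replicate 1. Among them Clec9a and Xcr1, markers of cross-presenting dendritic cells, had log2 fold changes of -1.52 and -1.30 (edgeR adjusted p = 0.0066 and 0.013), of which Xcr1 lost the call under the GC correction (log2 fold change -0.67, adjusted p = 0.17), and the most abundant per exon length was Fscn1 at 50.4, 33.6, 27.0 and 26.3 CPM. Without control replicate 1 the log2 fold change of Fscn1 was -0.28, and without control replicate 2 that of Clec9a was -1.15, both no longer called. Neutrophil genes summed to 148, 181, 309 and 325 CPM, and 4 of 6 tested rose, led in level by S100a9 at 19.2, 21.1, 83.8 and 82.5 CPM (log2 fold change 2.04, edgeR adjusted p = 6.0e-05). S100a8 rose too (log2 fold change 1.33), and Csf3r, a growth factor receptor of neutrophils, was within 1.5-fold (log2 fold change 0.56). The neutrophil genes Camp and Ngp were near 0 in all libraries.

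Mesenchymal genes fell in 6 of 7 cases and summed to 2793, 1044, 619 and 676 CPM, so that control replicate 1 stood far above control replicate 2. Without control replicate 1, 4 of the 7 were called. The most abundant per exon length was Col1a1 (log2 fold change -1.29, or -0.46 and not called without control replicate 1), and Aspn had the largest fall (log2 fold change -5.27, edgeR adjusted p = 2.0e-04, and -3.70 under the GC correction). Of the endothelial genes 5 were tested and only Cdh5 rose (log2 fold change 0.77, edgeR adjusted p = 0.037), a call that upper-quartile scaling, DESeq2 and the GC correction did not make. It was also lost without control replicate 2 (0.60), propranolol replicate 1 (0.78) or propranolol replicate 2 (0.78). Of 7 B cell genes 2 were tested, with Cd79b higher (log2 fold change 0.78, edgeR adjusted p = 0.011) and Ms4a1 lower (log2 fold change -2.67, edgeR adjusted p = 0.012), neither called under the GC correction (0.52 and -1.90). The call of Ms4a1 was also lost whichever library was left out (log2 fold change -2.87 to -2.54, edgeR adjusted p 0.068 to 0.10). None of 6 mast cell and basophil genes was tested, and Mcpt8, Ms4a2 and Fcer1a had no count in any library.

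Macrophage genes were the most abundant by far, at 23790, 22860, 29360 and 26550 CPM summed over 12 genes, with a median log2 fold change of 0.29. The most abundant per exon length, Lyz2, C1qa and C1qb, had log2 fold changes of 0.28, -0.18 and 0.51 and were not called. C1qb was within 1.5-fold with an edgeR adjusted p of 9.2e-04, and 0.21 under the GC correction. Of the 12 genes, 9 had fold changes above 0 and 3 below. An edgeR adjusted p under 0.05 was found for 8, of which 6 were within 1.5-fold. Csf1r, the receptor for the macrophage growth factor, was higher at 2553, 2464, 3595 and 3981 CPM (log2 fold change 0.59, edgeR adjusted p = 6.2e-04), which was under the threshold with upper-quartile scaling, without propranolol replicate 2 (0.55) and after the GC correction (0.32). Ptprc, which encodes CD45 on all white blood cells, was lower at 754, 780, 479 and 442 CPM (log2 fold change -0.74, edgeR adjusted p = 3.0e-04), and under the GC correction its log2 fold change was 0.20. The summed receptor genes at 151 to 288 CPM were thus a small part of the RNA of these libraries. The part of these other cell types in the receptor values was not tested.

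**Figure D4:**
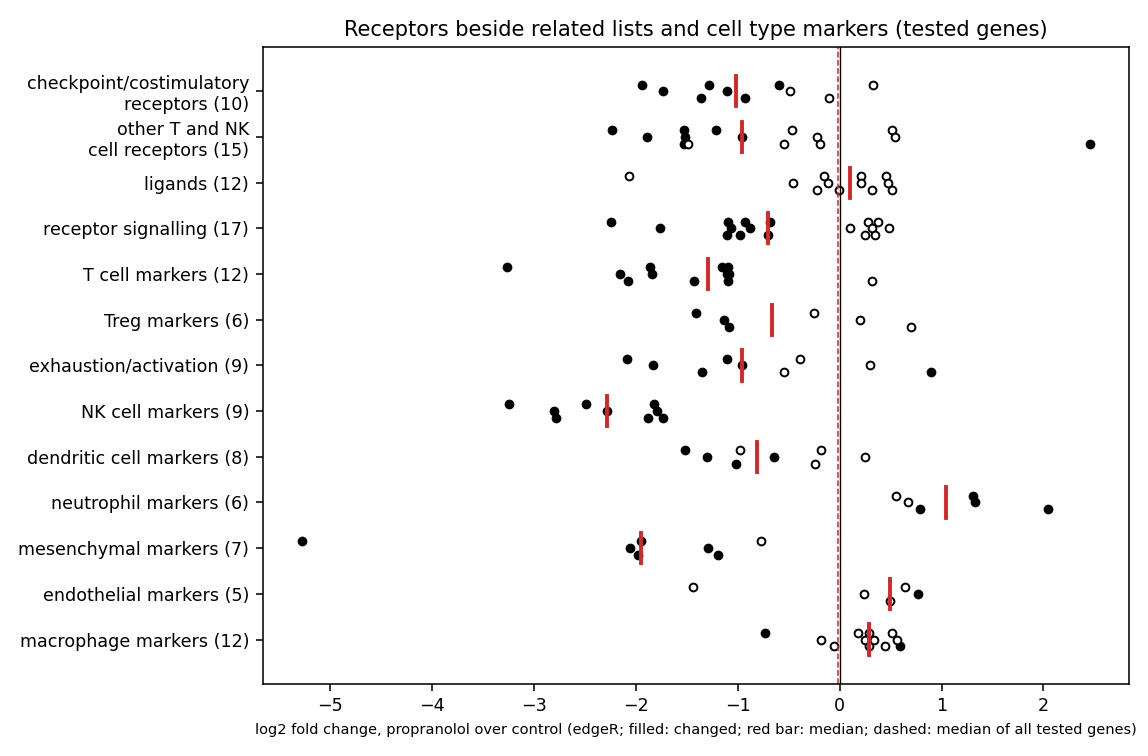
Log2 fold change, propranolol over control, of each tested gene in the receptor list and in 12 related lists (edgeR, number of tested genes in parentheses), with filled points for genes called changed, a red bar at each list's median and a dashed line at the median of all tested genes. The median of the receptors (-1.02) lies left of 0, as do those of the T cell (-1.29), NK cell (-2.28), mesenchymal (-1.95), dendritic cell (-0.81) and signalling genes (-0.70). Single genes of some of these lists lie right of 0. The medians of ligands (0.10) and macrophage genes (0.29) lie near 0.

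The genes whose pattern over the 4 libraries was most like that of the 3 receptors with the highest mean TPM over all 4 libraries were also identified, by the Euclidean distance between log2 CPM values centred on their mean. For Lag3 the nearest were Tmem163, Lat and 5430427O19Rik, at distances of 0.035, 0.085 and 0.088. Lat, an adaptor of T cell receptor signalling, was at 16.1, 19.6, 10.6 and 7.27 CPM, with the same order of libraries as Lag3. For Havcr2 the nearest were Gnal, Ddx5 and Tdrd3 (0.010, 0.012 and 0.021). For Tnfrsf9 they were Ccdc117, Abce1 and 5031434O11Rik (0.025, 0.027 and 0.034). Ddx5, a widely expressed RNA helicase, was at 698, 700, 525 and 470 CPM.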

How the data were processed

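Poly-adenylated RNA of FACS-sorted TAMs was sequenced in 4 libraries, 2 control and 2 propranolol. The authors deposited raw counts of read pairs per gene. Reads had been aligned to mm10 with STAR 2.7.1a, filtered with SAMtools 1.9 and counted over GENCODE exons with featureCounts 1.6.4, per the submitters' processing notes and the methods. The GENCODE release and a strand option are not given in the sources used here. Columns were assigned by the number in each label, and 0 per-sample columns were unused. Identifiers were matched to GENCODE M21, which gave 54079 symbols.

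Counts were tested with the edgeR 4.0.16 quasi-likelihood test (R 4.3.3) after TMM scaling and filterByExpr (minimum count 10), with Benjamini-Hochberg adjustment over 14688 genes. The common dispersion was 0.0172. TPM used the union of exons. The GC trend of each library, fitted as a natural spline (5 degrees of freedom), was removed through offsets. Alternatives comprised DESeq2 1.42.0, limma-voom (3.58.1), other scalings, filters and thresholds, and leaving out each library.

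The receptor genes, the 14 other lists and the alternatives were chosen with earlier results of these data known. All receptors are named. Other names were drawn, in each list, from the 3 genes of highest mean TPM and up to 5 changed genes of lowest p, from any T cell, regulatory T cell or ligand gene, and from the 3 genes of mean CPM of at least 1 nearest in pattern to each of the 3 receptors of highest mean TPM. Genes of the sort gate and genes at or near 0 were named outside this rule, after their values were seen. Counting error limits genes with few counts, and 3 counts correspond to 0.202, 0.12, 0.0825 and 0.196 CPM in the libraries.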

Additional observations from a re-analysis of the deposited data

How the results depend on the processing

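Over 13 alternatives for each of the 10 receptor genes, 120 of 130 log2 fold changes kept their direction and their side of the threshold. Ctla4 lost the call under the GC correction (-0.52) and under the GC correction with the replicate block (-0.53). Tnfrsf9, just past 1.5-fold, lost it under both (-0.43 and -0.45), with limma-voom (-0.57), with no filter on low counts (-0.52), without control replicate 1 (-0.51) and without propranolol replicate 2 (-0.36). Leaving out each replicate moved Tnfrsf9 between -0.85 and -0.36 and Tnfrsf18, which passed in no case, between -0.40 and 0.14, with a change of sign without control replicate 1 (0.10) and without propranolol replicate 2 (0.14). The causes were not tested.

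Genes changed among all tested genes numbered 4084, and 1855 with the GC correction, 2128 with the GC correction and the replicate block, 728 with a log2 fold change above 1.5 and 6204 with no fold threshold. Leaving out each library gave 3615 to 4329, and the fit then took the spread of the remaining pair for both groups. With a log2 fold change above 1.5, 2 receptor genes were called, Icos and Cd28. Of 182 counts in the 14 other lists 154 stayed within 1.5 times or at 0. Those at 0 include the mast cell and basophil list, where 0 genes were tested in the main fit. With all T cell marker genes in place of Cd3 as reference, all log2 differences were lower by the same amount, which left Pdcd1 at 0.11 and Tigit at -0.04.

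The labels number the libraries 1 and 2 in each group. Deviations of same-numbered libraries from their group means correlated at 0.169 over 14688 genes. With only 2 pairs this value cannot decide whether the libraries were paired, and the labels give a shared number but state no pairing. With the replicate number as a block, 4362 genes were called, and the block alone changed no call among the 10 receptor genes. Low counts limit Icos, Cd28, Tigit and Ctla4, which had 21 to 59 counts in propranolol replicate 2.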
